A study of Mus musculus with 19 samples.

Results

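The glutathione, thioredoxin and NRF2 target genes are 36 mouse genes of antioxidant defence, taken by symbol from the 46983 genes counted in the series. All 36 had a row in the counts, and 35 of them held enough reads to be among the 16763 genes tested. The remaining one was Gpx2. They were followed in 19 tumours of 4T1, a mouse mammary carcinoma line, each grown from 1000000 cells in a BALB/cAnN mouse. From day 3 the mice were given 3 doses, 3 days apart, of anti-CTLA-4, an antibody that blocks an inhibitory receptor of T cells, or of control IgG. LDHA-KD tumours made up 2 groups, 5 tumours given anti-CTLA-4 and 5 given IgG. Control tumours made up the other 2, with 5 given anti-CTLA-4 and 4 given IgG (replicates 1, 3, 4 and 5). LDHA-KD tumours came from the line named 4T1-KD and control tumours from 4T1-Sc, and the labels call the mice naïve and syngeneic and give no other genotype, age or sex. Each arm is 1 line, and how LDHA was reduced or whether a line is a clone is not given in the sources used here, so the knockdown and any other difference between the lines cannot be told apart. No label says that each replicate was a separate animal, so every p-value here speaks only of the variation among the samples of a group, part of which may be technical. The series asks how control and LDHA-deficient tumours differ in gene expression under the blockade and without it.

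NRF2, encoded by Nfe2l2, is a transcription factor whose level is set largely by protein degradation: KEAP1 holds it for a CUL3 ubiquitin ligase until oxidants or electrophiles modify KEAP1. Freed NRF2 pairs with small MAF proteins on antioxidant response elements and raises genes that make glutathione, detoxify quinones and electrophiles, handle heme and keep thioredoxin reduced. Glutathione serves as the electron donor of glutathione peroxidases and is joined to electrophiles by glutathione transferases, while thioredoxin feeds the peroxiredoxins. Superoxide dismutases and catalase act on superoxide and hydrogen peroxide without either thiol. In tumours both the carcinoma cells and the infiltrating cells use these enzymes.

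Gene counts totalled 31783272 to 43266699 per library, and 3 counts corresponded to 0.0693 to 0.0944 CPM (counts scaled to a library of 1000000), a limit that covers counting error only. Ldha, the check of the knockdown, had 566, 485, 584, 525 and 545 CPM in LDHA-KD tumours with anti-CTLA-4 and 478, 469.9, 452, 506 and 519 CPM in those with IgG. In control tumours Ldha had 2244, 1524, 1955, 1910.3 and 1935 CPM with anti-CTLA-4 and 1926, 1624, 1567 and 1283 CPM with IgG, so every LDHA-KD tumour lay below every control tumour. The first principal component (41.8% of the variance) separated LDHA-KD from control tumours. On the second (17.0%) replicates 3 and 5 of LDHA-KD tumours with anti-CTLA-4 and replicates 3 and 5 of control tumours with anti-CTLA-4 lay apart from the other libraries. For the 35 genes tested, calls between the lines that change without these 4 libraries are given both ways. Calls of marker genes and of the wider lists are given on all libraries only. Marker genes differed between the lines, beside 34.3% of all genes called under IgG and 40.0% under anti-CTLA-4. Of 10 macrophage markers, 8 rose under IgG and 10 under anti-CTLA-4, and their summed level was 3426 to 3915 CPM in LDHA-KD tumours with anti-CTLA-4, 3390.3 to 3758 in LDHA-KD tumours with IgG, 1629 to 2089 in control tumours with anti-CTLA-4 and 1359.9 to 2354 in control tumours with IgG. All 10 T cell markers rose in both, with sums of 84.5 to 157, 64.7 to 101, 31.9 to 62.4 and 16.2 to 33.9 CPM in the same order of groups. Of 10 epithelial tumour cell markers, 4 fell and 1 rose under IgG and 6 fell and 1 rose under anti-CTLA-4, with sums of 2174 to 3373, 3142 to 3440.0, 4024 to 4794 and 4064 to 5216 CPM. Of 10 endothelial markers, 8 fell and 1 rose under IgG and 5 fell and 1 rose under anti-CTLA-4. Of 10 fibroblast markers, 5 fell and 1 rose under IgG and 3 rose under anti-CTLA-4. Of 10 neutrophil markers, 1 rose under IgG and 0 changed under anti-CTLA-4. Of 6 erythroid markers tested, 2 fell in each, and of 8 adipocyte markers 0 changed under IgG and 2 fell under anti-CTLA-4. The neutrophil, erythroid and adipocyte lists, and the fibroblast list under anti-CTLA-4, thus had smaller shares called than all genes. Every macrophage, T cell, epithelial, endothelial, fibroblast, neutrophil and adipocyte marker had counts in every library. The part of cell composition in the results below was not tested, and in bulk tumours fewer cells of a type and less RNA per cell cannot be told apart.

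In LDHA-KD tumours the antioxidant genes moved in both directions. The changes were largest among the glutathione transferases, of which Gstm2 and Gstm5 rose and Gsta4, Gsto1 and Mgst2 fell. Catalase rose a little. The classical NRF2 targets Nqo1, Hmox1, Gclc and Gclm did not pass the test, with log2 fold changes between -0.18 and 0.16 in the 2 comparisons of the lines. Txnrd1 and Srxn1, also NRF2 targets, were positive in both comparisons. Txnrd1 had 0.20 under IgG and 0.27 under anti-CTLA-4 and passed under anti-CTLA-4 only. Srxn1 had 0.19 and 0.11 and passed under IgG only. Under IgG, Gstm2, Gstm5, Cat and Srxn1 rose and Gsta4, Gsto1 and Mgst2 fell, which is 7 of 35 genes tested (20.0%), against 34.3% of all genes called by edgeR's quasi-likelihood F test at an adjusted p under 0.05. By direction, all genes were called higher in 16.8% and lower in 17.5% of cases. A gene that met this threshold is said below to have passed, risen or fallen. Under anti-CTLA-4, Gstm2, Gstm5, Cat and Txnrd1 rose and Gsta4, Gsto1, Mgst2, Keap1, Prdx5 and Sod1 fell, which is 10 of 35 (28.6%), against 40.0% of all genes, 20.2% higher and 19.8% lower. Without replicate 1 of the LDHA-KD tumours with anti-CTLA-4, Gpx8, Gsr, Prdx1 and Txn1 passed as lower too, and the number that fell was 10. The median log2 fold change of the 35 genes was 0.018 under IgG and -0.080 under anti-CTLA-4, beside -0.0016 and 0.0059 for all genes tested. Summed over the 36 genes, the level was 3839 to 4806 CPM in LDHA-KD tumours with anti-CTLA-4 and 4243 to 4402 CPM in those with IgG, against 3992 to 4781 CPM in control tumours treated with anti-CTLA-4 and 3867 to 4705 CPM in those with IgG, and the ranges overlapped. The same 6 genes, Gstm2, Gstm5, Cat, Gsta4, Gsto1 and Mgst2, were called in the same direction in both. Both comparisons set the same 2 lines against each other. The share of all genes called in both was not counted, so this overlap is not read as a trait of these genes. In 7 of the 35 genes the groups did not overlap under IgG, 5 with every LDHA-KD tumour higher and 2 with every LDHA-KD tumour lower, beside 30.4% of all genes, 15.1% higher and 15.2% lower. Under anti-CTLA-4 there were 9 such genes, 5 higher and 4 lower, beside 23.2% of all genes, 11.6% in each direction.

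**Figure D1:**
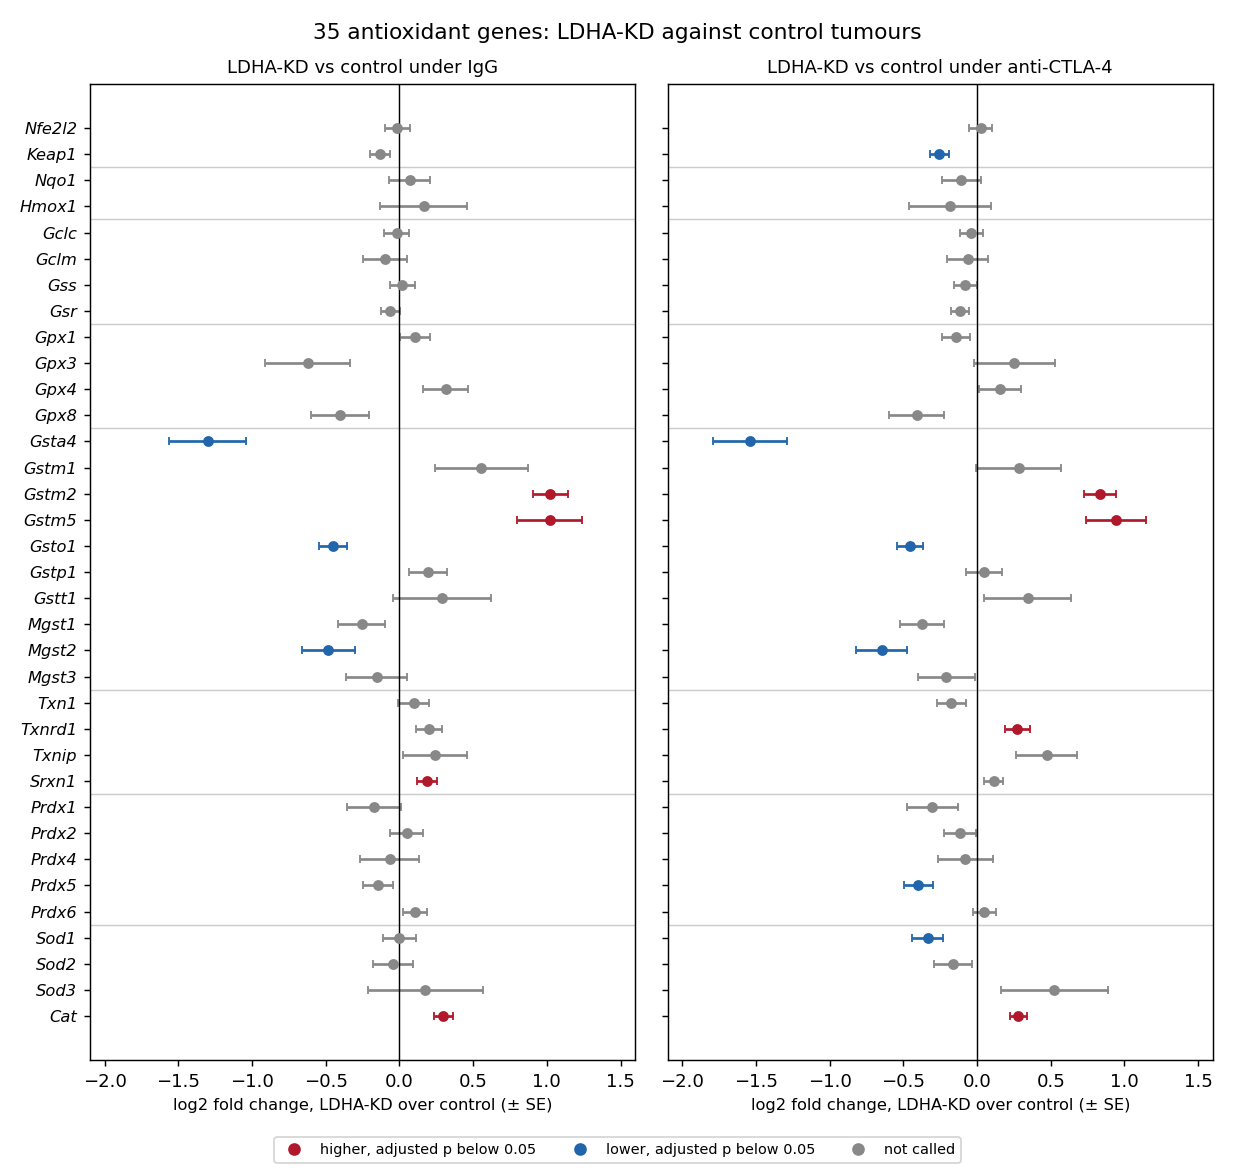
Log2 fold change of LDHA-KD over control tumours with its standard error for the 35 genes tested, under IgG (left) and under anti-CTLA-4 (right), grouped by role; red and blue mark genes called higher and lower. Gsta4 lies farthest to the left at -1.30 and -1.54, Gstm2 and Gstm5 farthest to the right under both treatments, and 28 genes on the left and 25 on the right are grey.

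Per kilobase of exon, the highest mean levels among the 36 genes were those of Txn1, Prdx1, Gpx1, Gpx4 and Prdx5. Exon length here joins the exons of all annotated transcripts of a gene, 1051 bases for Txn1 and 3043 for Prdx1. The ranking therefore depends on the annotation, and in CPM without this division Prdx1 was above Txn1 in every library. Txn1, thioredoxin itself, had 368 CPM per kilobase in LDHA-KD tumours with anti-CTLA-4 and 410.1 in those with IgG, 415 in control tumours with anti-CTLA-4 and 384 in control tumours with IgG. Prdx1 had 214, 237, 264 and 267 CPM per kilobase in the same order of groups, and Gpx1 had 231, 251, 256 and 234, so the order of these neighbours differed between groups. At the low end stood Gstt1, with 0.870 to 1.59 CPM per kilobase in LDHA-KD tumours and 0.714 to 1.25 in control tumours, and Gpx2, a peroxidase best known from the gut epithelium. Gpx2 had group means of 0.122, 0.0984, 0.0362 and 0.0568 CPM in the order of groups used for Txn1, near the level of 3 counts, and 0 counts in 2 libraries, so no fold change is given for it.

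Nfe2l2 itself (chromosome 2, 75675513 to 75704641, minus strand, GRCm38, as all gene positions here) differed little between the lines. Nfe2l2 had 159, 169.7, 163, 161 and 159 CPM in LDHA-KD tumours with anti-CTLA-4 and 161, 152, 159, 141 and 167 CPM in those with IgG. In control tumours Nfe2l2 had 169.7, 142, 147, 165 and 173 CPM with anti-CTLA-4 and 188, 154, 139 and 148 CPM with IgG. The groups overlapped, and the log2 fold change (LDHA-KD over control, as for all values of this kind between the lines) was -0.014 (SE 0.083) under IgG and 0.025 (SE 0.078) under anti-CTLA-4. Keap1 (chromosome 9, 21229730 to 21239361, minus strand), the sensor that leads NRF2 to degradation, was lower in LDHA-KD tumours under anti-CTLA-4. Keap1 had 55.99, 45.9, 55.2, 52.3 and 52.2 CPM in LDHA-KD tumours with anti-CTLA-4 and 51.1, 51.7, 48.7, 51.5 and 53.5 CPM in those with IgG. In control tumours Keap1 had 67.95, 58.9, 61.8, 58.6 and 65.1 CPM with anti-CTLA-4 and 57.3, 59.6, 57.7 and 50.3 CPM with IgG. Under anti-CTLA-4 every LDHA-KD tumour lay below every control tumour, while under IgG 4 of the 5 LDHA-KD values lay above the lowest control value. Its log2 fold change was -0.26 (SE 0.065, edgeR adjusted p = 0.00400) under anti-CTLA-4 and -0.13 (SE 0.069, edgeR adjusted p = 0.151) under IgG. The difference between these, the interaction, was -0.13 (SE 0.095, edgeR adjusted p = 0.99980) and did not pass. The antisense gene Gm16754 overlaps exons of Keap1, and because the strand setting of the counting is not given in the sources used here, reads of both may be mixed.

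Nqo1, the quinone reductase that is a classical readout of NRF2 activity, was at a low level in all 4 groups. Nqo1 had 5.88, 6.67, 6.09, 5.88 and 6.92 CPM in LDHA-KD tumours with anti-CTLA-4 and 6.42, 5.38, 7.49, 6.08 and 6.02 CPM in those with IgG. In control tumours Nqo1 had 7.70, 5.10, 7.03, 6.97 and 7.12 CPM with anti-CTLA-4 and 7.46, 4.61, 6.33 and 5.50 CPM with IgG. The 4 groups overlapped, and the log2 fold change was 0.069 (SE 0.14, edgeR adjusted p = 0.742) under IgG and -0.11 (SE 0.13, edgeR adjusted p = 0.538) under anti-CTLA-4. Hmox1, the heme oxygenase that NRF2 and the repressor BACH1 are both known to control, varied widely between tumours of 1 group. Hmox1 had 139.9, 119, 337, 209 and 252 CPM in LDHA-KD tumours with anti-CTLA-4 and 133, 151, 140.3, 126 and 182 CPM in those with IgG. In control tumours Hmox1 had 259, 137, 345, 144 and 317 CPM with anti-CTLA-4 and 140.4, 155, 144 and 83.7 CPM with IgG. The 6 highest values were all in tumours with anti-CTLA-4, in 3 LDHA-KD and 3 control libraries, and 4 of these 6 are the libraries that lay apart on the second principal component. Between the lines its log2 fold change was 0.16 (SE 0.30) under IgG and -0.18 (SE 0.28) under anti-CTLA-4, and neither was called.

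**Figure D2:**
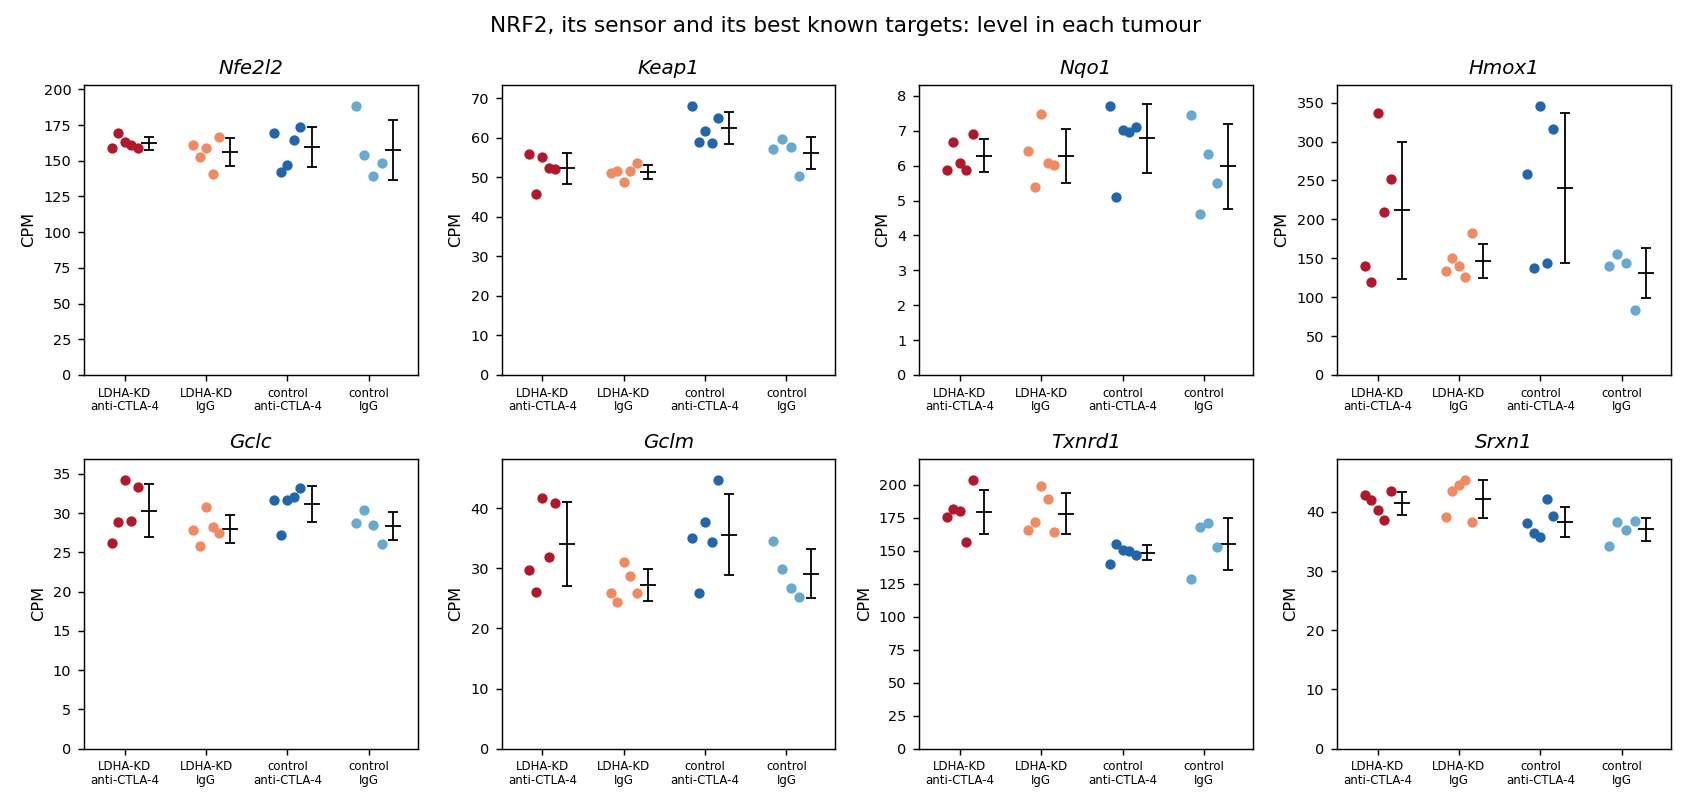
Level (CPM, linear axes from 0) of Nfe2l2, Keap1 and 6 NRF2 target genes in each tumour of the 4 groups; dots are tumours and the black mark with bars is the group mean ± SD. The 4 groups overlap for Nfe2l2, Nqo1 and Gclc, Keap1 is lower in LDHA-KD than in control tumours with anti-CTLA-4 (52.3 ± 3.98 against 62.5 ± 4.03 CPM), and Hmox1 spreads widely in both anti-CTLA-4 groups.

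The antioxidant response element, the sequence that NRF2 binds, has the core TGACNNNGC. This core was searched on both strands of RefSeq promoters (GRCm38.p6, 250 bases before to 50 after a gene's start), which were found for 30 of the 36 genes. It was present in 8 of the 30 (26.7%), beside 14% of all 27025 genes with a promoter in the table and 12.4% of all 32851 promoters. A match is a description of the letters and not a bound site, and the core can overlap other motifs: that of Prdx1 also holds TGACTCA, the letters of an AP-1 site, on its opposite strand. The 8 windows of 29 bases are shown because they allow the NRF2-type letters to be set beside the calls; capitals mark the core. They are Nfe2l2 chr2:75704885-75704913, Gclm chr3:122245413-122245441, Gstm5 chr3:107895802-107895830, Mgst1 chr6:138140461-138140489, Txnrd1 chr10:82859104-82859132, Srxn1 chr2:152105542-152105570, Prdx1 chr4:116685456-116685484 and Sod1 chr16:90220696-90220724, each read 5′ to 3′ on its gene's strand (minus for Nfe2l2, plus for the other 7).
Nfe2l2: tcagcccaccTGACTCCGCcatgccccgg
Gclm: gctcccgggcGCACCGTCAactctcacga
Gstm5: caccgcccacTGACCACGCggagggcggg
Mgst1: gcggggcttgGCACGGTCAggaggcgggg
Txnrd1: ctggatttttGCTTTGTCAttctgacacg
Srxn1: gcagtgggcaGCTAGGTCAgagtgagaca
Prdx1: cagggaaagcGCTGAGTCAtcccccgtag
Sod1: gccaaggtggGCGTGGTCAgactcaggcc

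Counted from the RefSeq gene start, whose first base is 1 and the base before it -1, the first base of the core lay at -240 in Nfe2l2, -134 in Gclm, -42 in Gstm5, -56 in Mgst1, -92 in the second listed promoter of Txnrd1, 29 in Srxn1, -133 in Prdx1 and -56 in Sod1. Of these 8 genes, Gstm5, Srxn1 and Txnrd1 rose and Sod1 fell in at least 1 comparison of the lines, and Nfe2l2, Gclm, Mgst1 and Prdx1 did not pass in either. Another 6 genes that changed, Cat, Gstm2, Gsto1, Keap1, Mgst2 and Prdx5, had no such letters in this window. Gclc, Gsr, Gsta4, Hmox1, Prdx6 and Sod3 were not looked at.

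The enzymes that make and recycle glutathione did not pass the test in either comparison of the lines, 0 of 4 in each, with log2 fold changes between -0.12 and 0.018. Gclc encodes the catalytic subunit of glutamate-cysteine ligase, the rate-limiting enzyme. Gclc had 26.1, 28.9, 34.2, 29.03 and 33.3 CPM in LDHA-KD tumours with anti-CTLA-4 and 27.8, 25.8, 30.8, 28.2 and 27.4 CPM in those with IgG. In control tumours Gclc had 31.7, 27.3, 31.7, 31.99 and 33.2 CPM with anti-CTLA-4 and 28.7, 30.4, 28.5 and 26.001 CPM with IgG. All 4 groups overlapped, with a log2 fold change of -0.020 (SE 0.083) under IgG and -0.040 (SE 0.078) under anti-CTLA-4. Gclm encodes its modifier subunit. Gclm had 29.7, 26.1, 41.6, 31.9 and 40.9 CPM in LDHA-KD tumours with anti-CTLA-4 and 25.9, 24.5, 31.1, 28.7 and 25.8 CPM in those with IgG. In control tumours Gclm had 35.1, 25.9, 37.6, 34.4 and 44.6 CPM with anti-CTLA-4 and 34.5, 29.9, 26.8 and 25.3 CPM with IgG. Its values were highest in replicates 3 and 5 of LDHA-KD tumours with anti-CTLA-4 and in replicate 5 of control tumours with anti-CTLA-4, and LDHA-KD against control gave -0.099 (SE 0.15) under IgG and -0.062 (SE 0.14) under anti-CTLA-4 on the log2 scale. The pseudogene Gm6061 on the same strand and the transcript Gm17494 on the other overlap exons of Gclm. Gss, glutathione synthetase, whose exons overlap Acss2 and antisense transcripts, averaged 18.7 ± 2.55 CPM with anti-CTLA-4 and 21.1 ± 0.953 CPM with IgG in the LDHA-KD line, and 19.8 ± 0.973 CPM with anti-CTLA-4 and 20.8 ± 0.907 CPM with IgG in the control line (mean ± SD, as below; n = 5, or 4 for control with IgG). Its log2 fold change was 0.018 under IgG and -0.079 under anti-CTLA-4. Gsr, which returns oxidised glutathione to its reduced form, averaged 90.6 ± 5.89 CPM with anti-CTLA-4 and 94.1 ± 7.22 CPM with IgG in the LDHA-KD line, and 98.3 ± 3.58 CPM with anti-CTLA-4 and 98.3 ± 4.80 CPM with IgG in the control line, and its log2 fold change was -0.063 under IgG and -0.12 under anti-CTLA-4.

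Of the 4 glutathione peroxidases tested, 0 passed in either comparison, and their log2 fold changes spread more widely, between -0.62 and 0.31. Gpx1, the abundant cytosolic enzyme, averaged 333 ± 44.4 CPM with anti-CTLA-4 and 362 ± 33.5 CPM with IgG in the LDHA-KD line, and 368 ± 42.9 CPM with anti-CTLA-4 and 337 ± 14.7 CPM with IgG in the control line, with log2 fold changes of 0.11 under IgG and -0.14 under anti-CTLA-4. Gpx4, which reduces lipid hydroperoxides in membranes and guards against ferroptosis, averaged 288 ± 80.02 CPM with anti-CTLA-4 and 308 ± 14.6 CPM with IgG in the LDHA-KD line, and 258 ± 29.1 CPM with anti-CTLA-4 and 248 ± 39.1 CPM with IgG in the control line. Under IgG every LDHA-KD tumour had more Gpx4 than every control tumour, with a log2 fold change of 0.31 (SE 0.15, edgeR adjusted p = 0.119). Under anti-CTLA-4 it was 0.16 (SE 0.14) and the groups overlapped. Gpx3, the secreted plasma enzyme, had 44.7, 42.4, 56.9, 50.6 and 46.4 CPM in LDHA-KD tumours with IgG, against 54.9, 80.6, 95.4 and 66.2 CPM in control tumours with IgG, a log2 fold change of -0.62 (SE 0.29, edgeR adjusted p = 0.103). With anti-CTLA-4 the Gpx3 values were 42.8, 43.5, 151, 95.04 and 115 CPM in LDHA-KD tumours and 66.2, 87.1, 92.2, 51.7 and 78.4 CPM in control tumours, and the log2 fold change was 0.25 (SE 0.27). The highest LDHA-KD values were replicates 3 and 5, and without the 4 libraries apart the sign turned, to -0.18. Without those 4 libraries Gpx4 and Gpx3 passed under IgG, at log2 fold changes of 0.32 (edgeR adjusted p = 0.0496) and -0.62 (edgeR adjusted p = 0.0391), and Gpx4 was at 0.32 (edgeR adjusted p = 0.120) under anti-CTLA-4. In a fit on only the groups compared both passed under IgG as well (edgeR adjusted p = 0.0280 for Gpx4 and 0.00618 for Gpx3), and Gpx4 also did without replicate 1 of LDHA-KD tumours with anti-CTLA-4. Gpx8, which resides in the endoplasmic reticulum, averaged 69.3 ± 20.4 CPM with anti-CTLA-4 and 71.4 ± 9.70 CPM with IgG in the LDHA-KD line, and 92.2 ± 16.8 CPM with anti-CTLA-4 and 94.5 ± 25.2 CPM with IgG in the control line, with log2 fold changes of -0.40 (SE 0.20, edgeR adjusted p = 0.121) under IgG and -0.41 (SE 0.19, edgeR adjusted p = 0.0864) under anti-CTLA-4.

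The glutathione transferases held the strongest changes. Of 10 tested, 2 rose (Gstm2, Gstm5) and 3 fell (Gsta4, Gsto1, Mgst2), under IgG and again under anti-CTLA-4. Gstm2 (chromosome 3, 107981702 to 107986453, minus strand) is a mu-class enzyme. Gstm2 had 32.4, 34.97, 35.9, 38.6 and 33.8 CPM in LDHA-KD tumours with anti-CTLA-4 and 41.3, 34.8, 44.8, 29.3 and 40.9 CPM in those with IgG. In control tumours Gstm2 had 16.6, 19.5, 19.1, 18.5 and 24.9 CPM with anti-CTLA-4 and 20.2, 18.9, 18.1 and 17.99 CPM with IgG. Every LDHA-KD tumour lay above every control tumour under both treatments. Gstm2 rose with a log2 fold change of 1.02 (SE 0.12, edgeR adjusted p = 2.48e-06) under IgG and 0.83 (SE 0.11, edgeR adjusted p = 9.87e-06) under anti-CTLA-4. Gstm5 (chromosome 3, 107895821 to 107898686, plus strand), a further mu-class gene of the same cluster, rose as well. Gstm5 had 14.2, 13.1, 8.62, 10.4 and 7.48 CPM in LDHA-KD tumours with anti-CTLA-4 and 12.7, 12.9, 7.46, 11.98 and 10.4 CPM in those with IgG. In control tumours Gstm5 had 5.06, 5.50, 4.33, 6.46 and 6.61 CPM with anti-CTLA-4 and 5.98, 3.66, 4.90 and 7.33 CPM with IgG. Again there was no overlap under either treatment, although the lowest LDHA-KD values came close to the highest control values. Its log2 fold change was 1.02 (SE 0.22, edgeR adjusted p = 0.00134) under IgG and 0.95 (SE 0.20, edgeR adjusted p = 0.00118) under anti-CTLA-4. The antisense gene 4933431E20Rik overlaps exons of Gstm5, and mu-class paralogs may share reads with both genes.

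The promoters of both genes, which rose together, are given so that their letters can be compared: Gstm2 at chr3:107986371-107986670 on the minus strand and Gstm5 at chr3:107895604-107895903 on the plus strand (RefSeq, GRCm38.p6, 300 bases each, capitals marking the TGACNNNGC core, which is present in Gstm5 and not in Gstm2).
Gstm2: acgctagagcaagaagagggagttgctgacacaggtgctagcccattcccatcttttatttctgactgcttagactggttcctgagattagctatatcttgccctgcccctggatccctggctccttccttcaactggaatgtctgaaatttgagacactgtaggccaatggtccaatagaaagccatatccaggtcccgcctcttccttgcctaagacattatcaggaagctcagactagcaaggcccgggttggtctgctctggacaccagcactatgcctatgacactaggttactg
Gstm5: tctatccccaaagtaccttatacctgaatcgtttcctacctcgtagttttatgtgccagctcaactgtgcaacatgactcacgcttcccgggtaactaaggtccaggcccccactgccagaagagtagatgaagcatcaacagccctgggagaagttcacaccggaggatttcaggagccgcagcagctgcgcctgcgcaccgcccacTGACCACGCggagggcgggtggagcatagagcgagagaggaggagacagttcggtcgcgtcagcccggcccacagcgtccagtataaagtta

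Gsta4 (chromosome 9, 78182774 to 78209349, plus strand), an alpha-class enzyme known for conjugating reactive aldehydes, products of lipid peroxidation, fell the most. Gsta4 had 5.53, 9.59, 4.01, 3.43 and 3.54 CPM in LDHA-KD tumours with anti-CTLA-4 and 5.29, 8.44, 6.88, 8.09 and 4.93 CPM in those with IgG. In control tumours Gsta4 had 12.96, 14.8, 11.9, 19.1 and 17.2 CPM with anti-CTLA-4 and 17.2, 12.8, 14.6 and 21.8 CPM with IgG. The highest LDHA-KD value was below the lowest control value under both treatments, and within the LDHA-KD tumours with anti-CTLA-4 replicates 3, 4 and 5 were lowest. The log2 fold change was -1.30 (SE 0.26, edgeR adjusted p = 0.000722) under IgG and -1.54 (SE 0.25, edgeR adjusted p = 9.62e-05) under anti-CTLA-4, the largest in size among the 35 genes in both comparisons. Gsto1 (chromosome 19, 47854970 to 47864790, plus strand) is an omega-class enzyme with thioltransferase activity. Gsto1 had 58.6, 56.6, 50.5, 46.01 and 48.5 CPM in LDHA-KD tumours with anti-CTLA-4 and 59.2, 66.6, 53.8, 57.4 and 55.2 CPM in those with IgG. In control tumours Gsto1 had 65.5, 71.99, 70.99, 73.7 and 73.9 CPM with anti-CTLA-4 and 87.3, 70.4, 69.1 and 92.9 CPM with IgG. The groups did not overlap, but the highest LDHA-KD and lowest control values under IgG lay within a few CPM of each other. Its log2 fold change was -0.45 (SE 0.094, edgeR adjusted p = 0.00103) under IgG and -0.45 (SE 0.089, edgeR adjusted p = 0.000551) under anti-CTLA-4.

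Mgst2 (chromosome 3, 51660360 to 51682677, plus strand), a microsomal enzyme that can also make cysteinyl leukotrienes, fell less clearly. Mgst2 had 13.3, 10.6, 11.6, 10.6 and 11.05 CPM in LDHA-KD tumours with anti-CTLA-4 and 13.9, 12.6, 11.3, 8.58 and 13.2 CPM in those with IgG. In control tumours Mgst2 had 18.5, 12.8, 17.6, 19.04 and 21.6 CPM with anti-CTLA-4 and 24.4, 13.5, 12.3 and 16.48 CPM with IgG. The groups overlapped under both treatments, and control IgG replicate 1 was the highest of all libraries. The log2 fold change was -0.48 (SE 0.18, edgeR adjusted p = 0.0449) under IgG and -0.65 (SE 0.17, edgeR adjusted p = 0.00546) under anti-CTLA-4. The call under IgG was lost when any of 11 single libraries was left out, and the value then moved most without control IgG replicate 1, to -0.24 (edgeR adjusted p = 0.292). The other 10 were replicates 2, 3, 4 and 5 of LDHA-KD with IgG, 4 and 5 of LDHA-KD with anti-CTLA-4, 1, 3 and 4 of control with anti-CTLA-4 and 5 of control with IgG, with log2 fold changes of -0.52 to -0.39. The IgG call was also lost with limma voom (adjusted p = 0.0724), and in edgeR with no filter on low counts (adjusted p = 0.0605), on only the groups compared (adjusted p = 0.0792) and without the 4 libraries apart (adjusted p = 0.0606). Without the 4 libraries apart the anti-CTLA-4 value was -0.54 (edgeR adjusted p = 0.103). The other 5 transferases did not pass. Gstm1, the remaining mu-class member, averaged 6.66 ± 2.72 CPM with anti-CTLA-4 and 5.21 ± 0.939 CPM with IgG in the LDHA-KD line, and 5.49 ± 2.91 CPM with anti-CTLA-4 and 3.54 ± 0.445 CPM with IgG in the control line, and under IgG every LDHA-KD tumour lay above every control tumour at 0.55 (SE 0.32, edgeR adjusted p = 0.188). It passed under IgG without the 4 libraries apart (0.55, edgeR adjusted p = 0.0155) and in a fit on only the groups compared (0.56, edgeR adjusted p = 0.0170). Gstp1, the pi-class enzyme, had log2 fold changes of 0.19 under IgG and 0.047 under anti-CTLA-4, and Gstt1, a theta-class enzyme, 0.29 and 0.34. The microsomal Mgst1 had -0.26 under IgG and -0.37 (SE 0.15, edgeR adjusted p = 0.0531) under anti-CTLA-4, and it passed under anti-CTLA-4 with DESeq2 (adjusted p = 0.0408) and in edgeR without control IgG replicate 1 or without replicate 1 or 2 of control tumours with anti-CTLA-4. Its relative Mgst3 had -0.15 and -0.21.

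**Figure D3:**
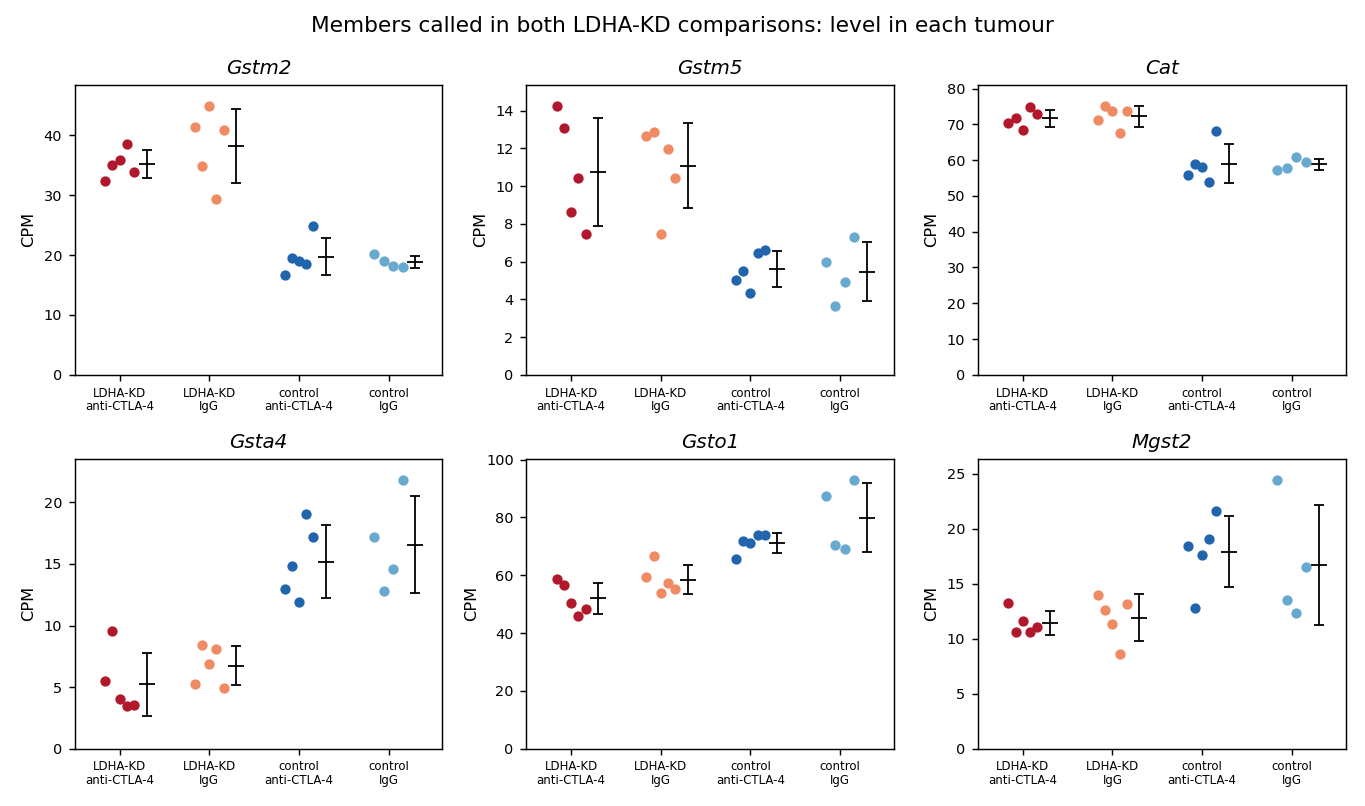
Level (CPM, linear axes from 0) in each tumour of the 6 genes called in both comparisons of LDHA-KD with control tumours; dots are tumours and the black mark with bars is the group mean ± SD. Gstm2, Gstm5 and Cat are higher and Gsta4, Gsto1 and Mgst2 lower in both LDHA-KD groups, with Gsta4 at 6.72 ± 1.59 CPM in LDHA-KD against 16.6 ± 3.93 CPM in control tumours with IgG.

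In the thioredoxin system 1 of 4 genes rose in each comparison, Srxn1 under IgG and Txnrd1 under anti-CTLA-4. Txnrd1 (chromosome 10, 82833951 to 82897712, plus strand) encodes the reductase that keeps cytosolic thioredoxin active. Txnrd1 had 176, 182, 180.0, 157 and 204 CPM in LDHA-KD tumours with anti-CTLA-4 and 166, 172, 199, 189.6 and 165 CPM in those with IgG. In control tumours Txnrd1 had 139.9, 155, 151, 149.7 and 147 CPM with anti-CTLA-4 and 129, 168, 171 and 153 CPM with IgG. Under anti-CTLA-4 the lowest LDHA-KD value was just above the highest control value, and under IgG the groups overlapped. The log2 fold change was 0.27 (SE 0.083, edgeR adjusted p = 0.0131) under anti-CTLA-4 and 0.20 (SE 0.088, edgeR adjusted p = 0.0858) under IgG, with an interaction of 0.073 (SE 0.12). It passed under IgG, at 0.25, without control IgG replicate 4. The call under anti-CTLA-4 was lost without the 4 libraries apart (0.21, edgeR adjusted p = 0.178). Srxn1 (chromosome 2, 152105516 to 152111376, plus strand), sulfiredoxin, repairs overoxidised peroxiredoxins. Srxn1 had 42.8, 41.99, 40.3, 38.7 and 43.5 CPM in LDHA-KD tumours with anti-CTLA-4 and 39.1, 43.5, 44.6, 45.4 and 38.3 CPM in those with IgG. In control tumours Srxn1 had 38.1, 36.5, 35.8, 42.2 and 39.3 CPM with anti-CTLA-4 and 34.2, 38.4, 36.98 and 38.5 CPM with IgG. LDHA-KD values were mostly above control values, and the groups overlapped under both treatments. Its log2 fold change was 0.19 (SE 0.069, edgeR adjusted p = 0.0418) under IgG and 0.11 (SE 0.065, edgeR adjusted p = 0.178) under anti-CTLA-4, and the IgG call was lost when any of 5 single libraries was left out (LDHA-KD IgG replicates 2, 3 and 4 and control IgG replicates 1 and 4), with log2 fold changes of 0.15 to 0.19. It was also lost in edgeR with no filter on low counts (adjusted p = 0.0917), on only the groups compared (adjusted p = 0.0664) and without the 4 libraries apart (adjusted p = 0.0562). Txn1 averaged 387 ± 54.02 CPM with anti-CTLA-4 and 431 ± 16.7 CPM with IgG in the LDHA-KD line, and 436 ± 41.6 CPM with anti-CTLA-4 and 403 ± 55.1 CPM with IgG in the control line, with log2 fold changes of 0.096 under IgG and -0.17 under anti-CTLA-4. Txnip, an inhibitor of thioredoxin that also curbs glucose uptake, had 197, 229.5, 149, 204 and 148 CPM in LDHA-KD tumours with anti-CTLA-4, against 119, 143, 119, 141 and 146 CPM in the control tumours given it. These groups did not overlap, and the log2 fold change of 0.47 (SE 0.21, edgeR adjusted p = 0.0747) did not pass. Under IgG it had 212, 201, 210.4, 189 and 185 CPM in LDHA-KD tumours, against 97.4, 139.8, 139 and 299 CPM in control tumours. Control IgG replicate 5 was the highest of these, and the log2 fold change was 0.24 (SE 0.22, edgeR adjusted p = 0.425). Without that library it was 0.67 and passed, and the anti-CTLA-4 value passed without control IgG replicate 1 or 5 and on only the groups compared (0.47, edgeR adjusted p = 0.0147). The antisense gene Gm15441 overlaps exons of Txnip.

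Of 5 peroxiredoxins, 0 passed under IgG and 1, Prdx5, fell under anti-CTLA-4. Prdx5 (chromosome 19, 6906697 to 6910106, minus strand) works in mitochondria, peroxisomes and the cytosol. Prdx5 had 299, 203, 259, 267 and 269 CPM in LDHA-KD tumours with anti-CTLA-4 and 255, 294, 233, 256 and 269 CPM in those with IgG. In control tumours Prdx5 had 380.0, 300.5, 382, 313 and 334 CPM with anti-CTLA-4 and 294, 273, 315 and 274 CPM with IgG. With anti-CTLA-4 every LDHA-KD tumour was below every control tumour, and with IgG the groups overlapped. The log2 fold change was -0.40 (SE 0.096, edgeR adjusted p = 0.00285) under anti-CTLA-4 and -0.14 (SE 0.10, edgeR adjusted p = 0.296) under IgG, and the interaction of -0.25 (SE 0.14, edgeR adjusted p = 0.99980) did not pass. Exons of Prdx5 overlap those of Trmt112 on the opposite strand. Prdx1, a cytosolic enzyme and NRF2 target, averaged 652 ± 192 CPM with anti-CTLA-4 and 721 ± 63.3 CPM with IgG in the LDHA-KD line, and 805 ± 143 CPM with anti-CTLA-4 and 813 ± 173 CPM with IgG in the control line, with log2 fold changes of -0.17 under IgG and -0.30 (SE 0.17, edgeR adjusted p = 0.171) under anti-CTLA-4. For the rest the log2 fold changes under IgG and then under anti-CTLA-4 were 0.050 and -0.12 for Prdx2, a cytosolic enzyme abundant in red cells. They were, for Prdx4 of the endoplasmic reticulum, -0.066 and -0.080, and for Prdx6, which also reduces phospholipid peroxides, 0.11 and 0.050. Prdx2 shares exon positions with Rnaseh2a and Junb on the opposite strand.

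Catalase rose in both comparisons by a small and even amount. Cat (chromosome 2, 103453849 to 103485160, minus strand) encodes the peroxisomal enzyme that splits hydrogen peroxide. Cat had 70.4, 71.8, 68.3, 74.9 and 72.7 CPM in LDHA-KD tumours with anti-CTLA-4 and 71.3, 74.997, 73.6, 67.6 and 73.7 CPM in those with IgG. In control tumours Cat had 55.8, 59.02, 58.1, 53.9 and 68.1 CPM with anti-CTLA-4 and 57.2, 57.8, 60.7 and 59.5 CPM with IgG. The lowest LDHA-KD value exceeded the highest control value with IgG and, narrowly, also with anti-CTLA-4, where control replicate 5 was highest. The log2 fold change was 0.30 (SE 0.063, edgeR adjusted p = 0.00126) under IgG and 0.28 (SE 0.059, edgeR adjusted p = 0.00102) under anti-CTLA-4. Sod1 (chromosome 16, 90220754 to 90226329, plus strand), the cytosolic copper-zinc dismutase, fell under anti-CTLA-4. Sod1 had 168, 144, 125, 149 and 134 CPM in LDHA-KD tumours with anti-CTLA-4 and 172, 168, 176, 136 and 169 CPM in those with IgG. In control tumours Sod1 had 198, 152, 185, 173 and 200.5 CPM with anti-CTLA-4 and 204, 151, 151 and 151 CPM with IgG. With anti-CTLA-4 the highest LDHA-KD value, that of replicate 1, lay above the lowest control value, that of replicate 2, and with IgG control replicate 1 stood far above the other 3 control tumours. The log2 fold change was -0.33 (SE 0.10, edgeR adjusted p = 0.0153) under anti-CTLA-4 and -0.00043 (SE 0.11, edgeR adjusted p = 0.998) under IgG. Without the 4 libraries apart the anti-CTLA-4 value was -0.18 (edgeR adjusted p = 0.337). Sod2, the mitochondrial manganese dismutase, averaged 73.2 ± 13.9 CPM with anti-CTLA-4 and 60.3 ± 4.69 CPM with IgG in the LDHA-KD line, and 81.97 ± 16.2 CPM with anti-CTLA-4 and 62.3 ± 6.16 CPM with IgG in the control line. Its log2 fold change was -0.047 under IgG and -0.16 under anti-CTLA-4. Sod3, the extracellular form, averaged 26.3 ± 13.3 CPM with anti-CTLA-4 and 15.99 ± 4.01 CPM with IgG in the LDHA-KD line, and 18.3 ± 7.47 CPM with anti-CTLA-4 and 14.2 ± 6.49 CPM with IgG in the control line, with log2 fold changes of 0.18 (SE 0.39) under IgG and 0.52 (SE 0.36) under anti-CTLA-4.

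The effect of the blockade was compared within each line. In LDHA-KD tumours 0 of the 35 genes passed edgeR's test, as did 0% of all genes, while 5 of the 35 and 1987 of all genes had an unadjusted p under 0.05. In control tumours 0 of 35 passed, with 0% of all genes, and 5 of the 35 and 1346 of all genes had an unadjusted p under 0.05. These unadjusted counts changed with the libraries included: without the 4 libraries apart they were 0 of the 35 and 368 of all genes in LDHA-KD tumours, and 1 and 467 in control tumours. With 1 library left out they ran from 2 (without replicate 3 or 5 with anti-CTLA-4, or 1, 2 or 5 with IgG) to 15 (without replicate 1 with anti-CTLA-4) of the 35 in LDHA-KD tumours, and from 919 to 3391 of all genes. In control tumours they ran from 3 (without replicate 5 with anti-CTLA-4) to 10 (without replicate 2 with anti-CTLA-4) of the 35, and from 713 to 2203 of all genes. DESeq2 called 50 of all genes in LDHA-KD tumours and 11 in control tumours, with 0 of the 35 among them in either, and limma voom called 0. In 0 of the 35 did the tumours with anti-CTLA-4 lie apart from those with IgG. Over all genes that held for 1.38% in LDHA-KD tumours (0.817% higher, 0.567% lower) and 1.27% in control tumours (0.555% higher, 0.716% lower). Hmox1 had a log2 fold change of 0.53 (SE 0.28, edgeR adjusted p = 0.463) in LDHA-KD tumours and of 0.88 (SE 0.30, edgeR adjusted p = 0.601), the largest of the 35, in control tumours. In each line 3 of the 5 tumours with anti-CTLA-4 were above all tumours with IgG. Sod2, which inflammatory signals are known to raise, had 0.28 (SE 0.13) in LDHA-KD tumours and 0.40 (SE 0.14) in control tumours. Gstt1 had 0.87 (SE 0.30) in LDHA-KD tumours and 0.81 (SE 0.33) in control tumours, and both genes had an unadjusted p under 0.05 in both lines, on all 19 libraries. The others at that level were Gpx3 at 0.89 (SE 0.28), Gclm at 0.32 (SE 0.14) and Gss at -0.17 (SE 0.080) in LDHA-KD tumours, and Keap1 at 0.15 (SE 0.069), Prdx5 at 0.24 (SE 0.10) and Hmox1 in control tumours. Beside these values, all 10 neutrophil markers had a positive fold change in both lines and 0 of them passed. Their summed level was 467 to 1433 CPM in LDHA-KD tumours with anti-CTLA-4, 260.0 to 707 in LDHA-KD tumours with IgG, 459 to 1273 in control tumours with anti-CTLA-4 and 287 to 464 in control tumours with IgG. The libraries with the highest neutrophil sums in their groups were LDHA-KD replicates 3 and 5 (1433 and 1256 CPM) and control replicates 5 and 3 (1273 and 836 CPM), which are the 4 libraries apart on the second principal component. They stood at an end of their group on other lists too. Fibroblast sums were highest (7991 and 5452 CPM) and epithelial sums lowest (2174 and 2345 CPM) in LDHA-KD replicates 3 and 5. Adipocyte sums were highest in control replicates 5 and 3 (868 and 372 CPM). In the other line these lists did not rank both replicates at that end. Some other marker lists also leaned to higher values with anti-CTLA-4 and some to lower values, with 0 markers past the test. All 8 adipocyte markers were positive in both lines, with a median log2 fold change of 0.16 in LDHA-KD tumours and 1.61 in control tumours, where all 8 had an unadjusted p under 0.05, and their sum was 76.8 to 177 CPM in LDHA-KD tumours with anti-CTLA-4 and 68.2 to 153 CPM in those with IgG, against 101 to 868 and 88.2 to 205 CPM in control tumours given anti-CTLA-4 and given IgG. Of 10 T cell markers, 10 were positive in LDHA-KD tumours (median 0.48) and 9 in control tumours (median 0.91), with an unadjusted p under 0.05 for 5 and 8. All 6 erythroid markers tested were positive in LDHA-KD tumours (median 0.59) and in control tumours (median 0.57). In LDHA-KD tumours 9 of 10 fibroblast markers (median 0.38) and 10 of 10 endothelial markers (median 0.25) were positive as well, against 2 and 6 in control tumours. Macrophage markers leaned lower, with 7 of 10 negative in LDHA-KD tumours (median -0.16) and 8 of 10 in control tumours (median -0.067). Epithelial tumour cell markers did so too, with 6 of 10 negative in LDHA-KD tumours (median -0.12) and 8 of 10 in control tumours (median -0.039). The part of any of these cells in the Hmox1, Sod2, Gstt1 or Gpx3 values was not tested.

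**Figure D4:**
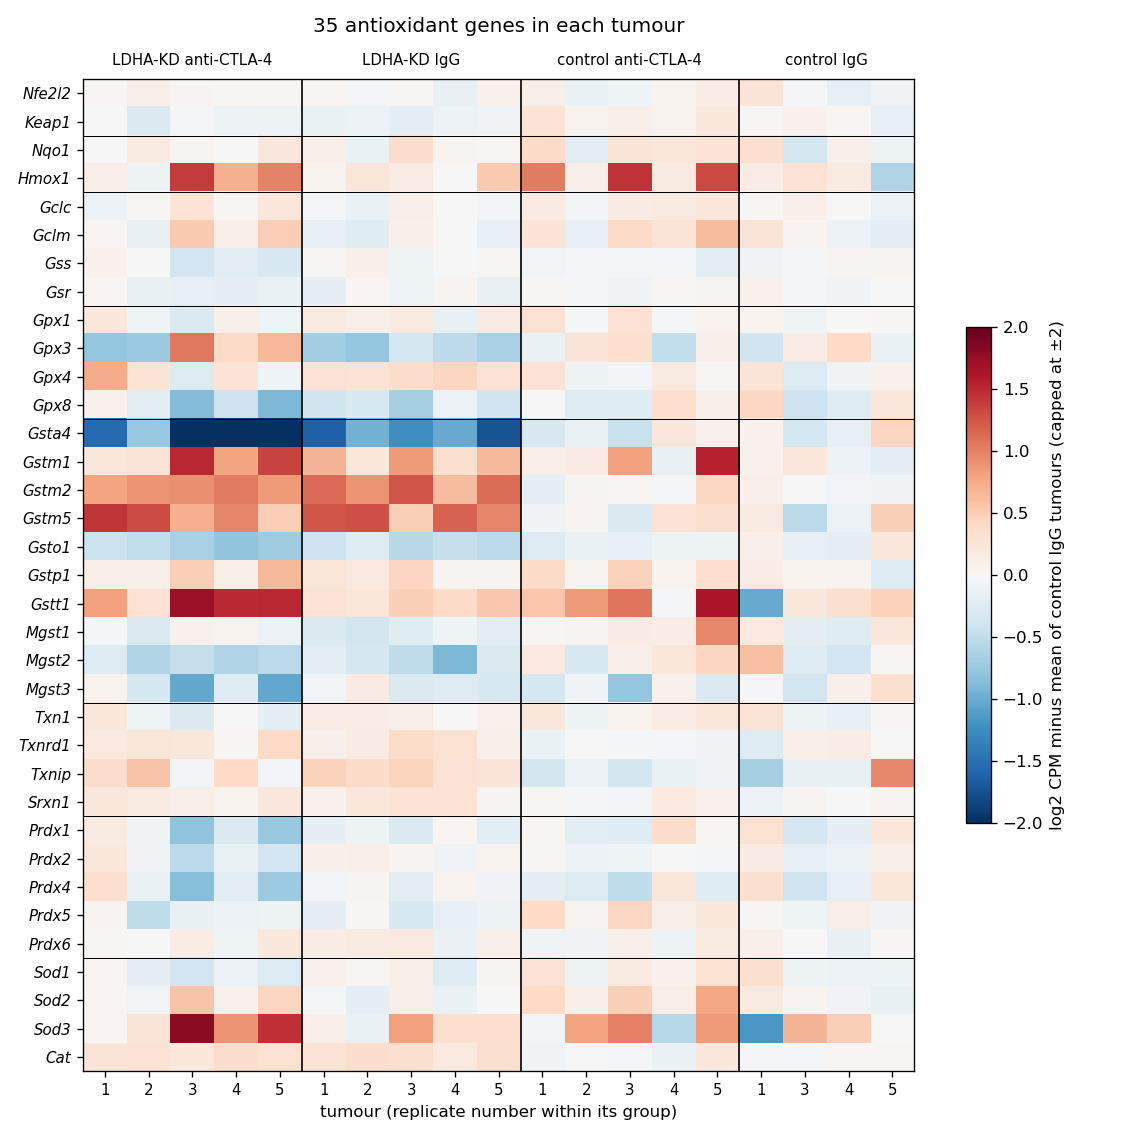
Log2 CPM of the 35 genes in each of the 19 tumours, minus the mean of control tumours with IgG (colour, capped at ±2), in rows by role and columns by group. The Gsta4 row is blue and the Gstm2 and Gstm5 rows red in all 10 LDHA-KD tumours, while Hmox1 and Sod3 are red in some tumours with anti-CTLA-4 of both lines, up to 1.44 and 1.80. Both are also red in some tumours with IgG. Hmox1 reaches 0.52 in LDHA-KD and 0.28 in control tumours with IgG, and Sod3 0.82 and 0.68.

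Whether the knockdown and the blockade modified each other was tested by the interaction, which subtracts the anti-CTLA-4 effect of the control line from that of the LDHA-KD line. Of the 35 genes 0 passed with edgeR, as did 0% of all genes, with 415 of all genes at an unadjusted p under 0.05. DESeq2 and limma voom called 0 of all genes as well. The 2 genes of the 35 with an unadjusted p under 0.05 were Sod1 at -0.33 (SE 0.15, edgeR adjusted p = 0.99980) and Gpx3 at 0.88 (SE 0.40, edgeR adjusted p = 0.99980). Without the 4 libraries apart 0 of the 35 and 160 of all genes were at that level, and without replicate 1 of LDHA-KD tumours with anti-CTLA-4, 6 and 1096. Leaving out any other single library gave 0 to 4 of the 35. For Sod1 the anti-CTLA-4 effect was -0.19 (SE 0.10) in LDHA-KD tumours and 0.15 (SE 0.11) in control tumours. For Gpx3 it was 0.89 (SE 0.28) in LDHA-KD tumours, where replicates 3, 4 and 5 with anti-CTLA-4 lay above every tumour with IgG, and 0.017 (SE 0.29) in control tumours. A gene that passed under 1 treatment and not the other (Keap1, Prdx5, Txnrd1, Srxn1 or Sod1) was therefore not shown to differ between treatments.

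The wider pathway was read from 9 further lists, with values as mean ± SD over 5 tumours (4 for control tumours with IgG). The shares of all genes called, 34.3% under IgG and 40.0% under anti-CTLA-4, apply to these counts too. Of 8 partners and adaptors of NRF2, 0 rose and 2 fell under IgG, and 0 rose and 4 fell under anti-CTLA-4. Cul3, the scaffold of the ligase that KEAP1 recruits, had 151 ± 12.2 CPM in LDHA-KD against 189.5 ± 17.04 CPM in control tumours with IgG, at -0.32 (SE 0.083, edgeR adjusted p = 0.00516), and -0.26 under anti-CTLA-4. Sqstm1, an autophagy receptor and competitor of NRF2 for KEAP1, fell under both treatments, at -0.23 (SE 0.082) and -0.36 (SE 0.078). Rbx1, the RING subunit of that ligase, and Maff, a small MAF partner, fell under anti-CTLA-4, at -0.41 (SE 0.11) and -0.33 (SE 0.13). Of 11 genes of glutathione supply and turnover tested, 0 rose and 2 fell under IgG, and 1 rose and 2 fell under anti-CTLA-4. Slc7a11, the cystine transporter that feeds glutathione synthesis, had 34.6 ± 13.97 CPM in LDHA-KD against 17.9 ± 3.35 CPM in control tumours under anti-CTLA-4, at 0.95 (SE 0.20, edgeR adjusted p = 0.00116), and 0.50 (SE 0.22, edgeR adjusted p = 0.0843) under IgG. Among LDHA-KD tumours with anti-CTLA-4, replicates 3 and 5 had 2142 and 1685 counts of Slc7a11, against 892 to 1064 in the others. Chac2, an enzyme that breaks down glutathione, fell by 0.70 under IgG and 0.70 under anti-CTLA-4 on the log2 scale, and Oplah, which returns its oxoproline product to glutamate, by 0.60 and 0.66. Of 8 other glutathione transferases tested of 14 counted, 2 rose and 2 fell under IgG, and 2 rose and 3 fell under anti-CTLA-4. Gsto2, the second omega-class gene, fell to 1.05 ± 0.264 CPM in LDHA-KD against 3.06 ± 0.882 CPM in control tumours with IgG, at -1.55 (SE 0.21, edgeR adjusted p = 1.63e-05) and -1.53 under anti-CTLA-4, the same direction as Gsto1. Gstk1, the kappa-class enzyme, rose by 1.29 under IgG and 0.97 under anti-CTLA-4 on the log2 scale, and Hpgds, the hematopoietic prostaglandin D synthase of the sigma class, by 1.05 and 0.95. Gsta1, with 0.340 ± 0.200 CPM in LDHA-KD against 0.956 ± 0.530 CPM in control tumours, fell under IgG, at -1.50 (SE 0.57, edgeR adjusted p = 0.0497). This call rests on few reads, 3 to 18 counts in LDHA-KD and 16 to 58 in control tumours with IgG, and the groups overlapped.

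Of 21 other thioredoxin, glutaredoxin and peroxidase genes, 3 rose and 3 fell under IgG, and 2 rose and 5 fell under anti-CTLA-4. Sesn3, a sestrin, a stress protein known to restrain mTOR signalling, had the largest log2 fold change of the list. It had 46.97, 47.2, 28.5, 42.5 and 30.4 CPM in LDHA-KD tumours with anti-CTLA-4 and 51.3, 60.8, 33.2, 51.4 and 53.6 CPM with IgG, against 6.91, 8.92, 5.94, 9.60 and 8.02 CPM in anti-CTLA-4-treated control tumours and 8.92, 9.92, 7.85 and 9.41 CPM with IgG. Every LDHA-KD tumour was above every control tumour, with log2 fold changes of 2.47 (SE 0.19, edgeR adjusted p = 2.04e-08) under IgG and 2.31 (SE 0.18, edgeR adjusted p = 1.61e-08) under anti-CTLA-4. Sesn1 rose under IgG, at 0.47 (SE 0.17). Gpx7, a peroxidase of the endoplasmic reticulum, fell by 0.90 and 0.63 on the log2 scale, and Glrx5, a mitochondrial glutaredoxin of iron-sulfur assembly, fell by 0.50 under anti-CTLA-4. Of 6 genes of NADPH supply, 2 rose and 1 fell under IgG, and 1 rose and 2 fell under anti-CTLA-4. Me1, malic enzyme, fell to 22.1 ± 1.45 CPM in LDHA-KD against 39.3 ± 6.15 CPM in control tumours with IgG, at -0.83 (SE 0.13, edgeR adjusted p = 7.09e-05), and by 0.90 on the log2 scale under anti-CTLA-4, while Pgd of the pentose phosphate pathway rose by 0.24 and 0.19. G6pdx, the entry enzyme of that pathway, rose by 0.24 under IgG, and Idh1 fell by 0.46 under anti-CTLA-4. Of 6 genes of iron and heme handling, 2 rose and 0 fell under IgG, and 1 rose and 0 fell under anti-CTLA-4. Blvrb, a biliverdin reductase, rose by 0.76 and 0.53, and Blvra by 0.41 under IgG.

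Of 9 carbonyl and quinone handling genes, 2 rose and 3 fell under IgG, and 1 rose and 3 fell under anti-CTLA-4. Cbr1, a carbonyl reductase, rose by 0.68 and 0.32 on the log2 scale, and Akr1c13 by 0.70 under IgG. Ugdh, which makes UDP-glucuronic acid for conjugation, fell by 0.55 and 0.60, and Akr1b8, an aldose reductase-like gene, by 0.37 and 0.50. Of 5 selenoprotein synthesis genes 0 passed under IgG and 1 fell under anti-CTLA-4, Pstk, a kinase of selenocysteine tRNA, at -0.51 (SE 0.12, edgeR adjusted p = 0.00288). Of 11 NADPH oxidase subunits tested, 6 rose and 1 fell under IgG, and 6 rose and 2 fell under anti-CTLA-4. That is 63.6% and 72.7% of the list, the highest shares called among the 9 lists. Cybb, the catalytic subunit of the phagocyte oxidase, had 122 ± 40.4 CPM in LDHA-KD against 50.3 ± 26.5 CPM in control tumours with IgG, at 1.28 (SE 0.32, edgeR adjusted p = 0.00384), and 1.34 (SE 0.29) under anti-CTLA-4. Rac2, the GTPase that activates it in blood cells, rose by 1.118 and 1.002, and Ncf4, one of its cytosolic subunits, by 0.96 and 1.01. Nox4, an oxidase of non-phagocytic cells, fell, with 7.84 ± 1.88 CPM in LDHA-KD against 18.6 ± 3.98 CPM in control tumours with IgG, at -1.25 (SE 0.22, edgeR adjusted p = 0.000241), and -1.42 (SE 0.21) under anti-CTLA-4. The macrophage markers, which rose in the same comparisons, summed to 3390.3 to 3758 CPM in LDHA-KD and 1359.9 to 2354 CPM in control tumours with IgG, and their part in the rise of the phagocyte oxidase genes was not tested.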

How the data were processed

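RNA of 19 tumours was poly(A)-selected and made into stranded libraries from 500 ng of total RNA with 8 PCR cycles, and sequenced as read pairs, per the labels' protocols. The authors deposited raw gene counts, and the submitters' processing notes name mm10, Picard 1.124 and HTSeq 0.5.3. The aligner, the annotation and the strand setting of the counting are not given in the sources used here, so overlapping genes and close paralogs may share reads. The 5 summary lines that name no gene held 26.2 to 28.7% of the counted records and stayed out of all totals.

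Groups were taken from the sample titles. Genes with enough counts (filterByExpr, 16763 genes) were fitted in 1 model over the 19 samples with edgeR 4.0.16 (quasi-likelihood F test, TMM factors, R 4.3.3), and p-values were adjusted by Benjamini-Hochberg over all these genes, with a threshold of 0.05. CPM are counts over TMM-scaled totals. The fit was tested on simulated data. No 2 libraries agreed within sampling noise, the lowest chi-square per gene over 171 pairs being 5.01. Gene positions are from GENCODE M21 and promoters from RefSeq GRCm38.p6.

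The members and lists were chosen with earlier results of these data known, so no list was tested. Values per tumour are given for 8 NRF2 genes and for the members with the largest changes among those that passed, and from each wider list up to 4 genes that passed are named. Values of Gpx3 and Txnip per tumour and the wider-list gene Sesn3 in full were added after their values were seen. Alternatives were DESeq2 1.42.0, its size factors in edgeR, limma 3.58.1 voom, no filter, only the groups compared, a replicate block, leaving out each library, and leaving out the 4 libraries apart.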

Additional observations from a re-analysis of the deposited data

Results flagged for a closer look

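In 11 of 144 combinations of a gene and a group, 1 tumour lay far from the other tumours of its group by Dixon's criterion at the 95% level. Chance flags about 1 in 20 groups. No explanation was tested for any of them.

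Replicate 4 of LDHA-KD tumours with IgG was the lowest of its group for 3 abundant enzymes: Gpx1 at 303 CPM against 366 to 382 in the other 4 tumours, Prdx6 at 127 CPM against 151 to 160, and Sod1 at 136 CPM against 168 to 176. Sod1 was also set apart in control tumours with IgG, where replicate 1 had 204 CPM and the other 3 tumours 151 CPM each, so that the log2 fold change of Sod1 under IgG rests on tumours that differ within both groups.

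Replicate 2 of control tumours with anti-CTLA-4 was the lowest of its group for the NRF2 targets Nqo1, at 5.10 CPM against 6.97 to 7.70, and Gclc, at 27.3 CPM against 31.7 to 33.2. Replicate 5 of the same group was lowest for Gss, at 18.0 CPM, and highest for Mgst1, at 84.6 CPM against 44.8 to 48.7. Replicate 1 of LDHA-KD tumours with anti-CTLA-4 was highest for Gsr, at 101 CPM against 86.8 to 89.6. Gpx2, near the level of 3 counts, was highest in replicate 1 of LDHA-KD tumours with IgG, at 0.210 CPM, and in replicate 3 of control tumours with IgG, at 0.145 CPM.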

How the results depend on the processing

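Gsta4, Gstm2, Gstm5, Gsto1 and Cat passed in both comparisons of the lines under all 7 other settings and in 19 of 19 fits that left out 1 library, and Keap1 and Prdx5 did so under anti-CTLA-4. Calls of the 35 genes that changed under the other settings are given beside the genes above, and those that changed under the replicate block below. Between anti-CTLA-4 and IgG, DESeq2 called 44 genes higher and 6 lower in LDHA-KD tumours and 11 higher in control tumours, none of them among the 35. Leaving out 1 library gave 0 to 1 genes higher in LDHA-KD tumours, the 1 without replicate 1 of the anti-CTLA-4 group. Without the 4 libraries apart, LDHA-KD against control under anti-CTLA-4 called 2131 genes higher and 2177 lower, with fewer samples. The number of the 35 that fell under anti-CTLA-4 was 6 to 10 with 1 library left out. The fit on only the groups compared was not run for the interaction.

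Signs turned for values that did not pass, most of them near 0, and the cause was not tested. Under IgG, Sod1 had 0.0014 with DESeq2 size factors, 0.0014 with DESeq2, 0.0062 with limma voom, 0.0069 with no filter and 0.0016 on only the groups compared, and under anti-CTLA-4 Gpx3 had -0.18 without the 4 libraries. With 1 library left out, the IgG values ran from -0.060 to 0.020 for Gclc, -0.068 to 0.084 for Nfe2l2, -0.028 to 0.19 for Nqo1 and -0.040 to 0.12 for Sod1. Those under anti-CTLA-4 ran from -0.087 to 0.0090 for Gclc, -0.16 to 0.042 for Gclm, -0.018 to 0.43 for Gpx3, -0.0061 to 0.26 for Gpx4 and -0.014 to 0.064 for Nfe2l2.

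What a replicate number marks is not given, and the data do not settle whether the numbers pair the samples. Over 27 pairs with the same number the correlation of deviations was -0.21 to 0.39 (median 0.12, other pairs -0.04). It exceeded 0.1 in 15 of these pairs, and 5 of 19 libraries correlated best with their own number. Replicates 3 and 5 lay apart on the second principal component in both anti-CTLA-4 groups. With the replicate number as a block, 7 of the 35 genes passed under IgG, with Srxn1 lost (adjusted p = 0.0633) and Gpx4 gained (0.0413), and 12 under anti-CTLA-4, with Gpx8 (0.0335) and Mgst1 (0.0497) gained, with 2943 and 2998 of all genes higher and lower under IgG and 3570 and 3574 under anti-CTLA-4. The block turned the sign under IgG of Gclc (0.0090), Nfe2l2 (0.00049) and Sod1 (0.026). Between anti-CTLA-4 and IgG it left 0 genes passing. In control tumours 10 of the 35 and 2504 of all genes then had an unadjusted p under 0.05 in edgeR, beside 5 and 1346 without the block. In LDHA-KD tumours these counts were 8 and 2341, beside 5 and 1987.

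Depth limits Gpx2 and the rarest transferases. For the other genes the spread between 4 or 5 tumours sets the precision, and 1 line per arm sets what a difference can be ascribed to.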
